A study of Mus musculus with 6 samples.

Results

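Matrix metalloproteases (Mmp), ADAM proteases (Adam), ADAMTS proteases (Adamts), ADAMTS-like proteins (Adamtsl) and the tissue inhibitors of metalloproteases (Timp) were examined in RNA sequencing of brain endothelial cells from adult mice. Members were all gene symbols of these 5 families that had 10 or more counts summed over the 6 libraries. Of 83 family symbols, 63 met this rule, among 23329 symbols in the files: 17 Mmp, 20 Adam, 17 Adamts, 5 Adamtsl and 4 Timp genes. The members with the fewest counts were Adam5 and Adam7 with 14 and 15 counts, and the symbols just outside were Mmp10 with 9, Mmp1a with 8 and Mmp27 and Adam18 with 7 each. Of the 20 symbols outside, 14 had 0 counts in every library, which allows up to 3 counts in a library, or 0.0739 to 0.0928 CPM (counts scaled to library size, with TMM factors).

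The groups were 3 libraries labelled GLUT1EC-/-, from mice whose Slc2a1 gene (the glucose carrier GLUT1) is knocked out in endothelial cells, and 3 libraries from wild-type (WT) littermates. All mice were C57BL/6 and 8 weeks old. Endothelial cells were isolated with magnetic beads (MACS) into lysis buffer and were never cultured. The driver of the knockout and the deleted exons are not given in the sources used here, and each library carries its own animal number.

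Metalloproteases of these families use a zinc ion to cut proteins outside the cell or at its surface. MMPs cut matrix proteins and each other's inactive precursors, ADAMs mostly shed the outer parts of membrane proteins, and ADAMTS enzymes cut proteoglycans and process procollagen. ADAMTS-like proteins resemble ADAMTS enzymes without the protease domain, and TIMPs bind and block the active proteases. In brain vessels such proteases are known for remodelling the basement membrane around the endothelium and for opening the blood-brain barrier after injury.

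Totals ranged from 31874662 to 39424384 counts per library. Slc2a1 had 3734, 5413 and 3891 CPM in the libraries labelled GLUT1EC-/-, against 3983, 4478 and 4171 CPM in WT. Its whole-gene count therefore did not separate the groups (adjusted p = 0.921, edgeR quasi-likelihood test), so all directions below compare the libraries by their labels. All 12 endothelial markers were detected, with a summed level of 17102 to 20177 CPM in libraries labelled GLUT1EC-/- and 17361 to 18934 CPM in WT. None passed the test (edgeR, 1 higher and 1 lower at an unadjusted p under 0.05, 0 by DESeq2 and by limma-voom). The 8 choroid plexus epithelium markers summed to 2954 to 5461 CPM in libraries labelled GLUT1EC-/- and 3653 to 6457 CPM in WT. Smooth muscle markers summed to 1863 to 2526.5 CPM and 1911 to 2590 CPM. Pericyte markers summed to 1296 to 1650 CPM and 1140.5 to 1351.5 CPM. None of these passed by edgeR, DESeq2 or limma-voom (2 pericyte markers higher at an unadjusted p under 0.05 by edgeR). The part of these cells in the results was not tested. GLUT1EC-/- 2 stood apart, with the lowest TMM scaling factor (0.884, against 1.01 to 1.05) and the lowest mean correlation across genes with its own group (0.972). In bulk samples, fewer cells of a type and less RNA per cell cannot be told apart.

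Of the 63 members, 52 passed the filter on low counts and were tested. Of these, 6 rose and 1 fell in the knockout group (adjusted p under 0.05 by the Benjamini-Hochberg method over all 14838 genes, edgeR). The 6 that rose were the metalloproteases Mmp3 and Mmp19, the ADAMTS proteases Adamts2 and Adamts9, Adam11 and the inhibitor Timp1, and the gene that fell was Adamts16. The share called was 11.5% higher and 1.92% lower among tested members, against 0.863% and 0.445% among all genes tested. Groups did not overlap for 17 tested members with GLUT1EC-/- above WT and for 2 below (32.7% and 3.85%), against 11.7% and 11.2% of all genes. Of those above, Mmp3 and Adamts18 passed the filter only through the libraries labelled GLUT1EC-/-. Of those below, Adamts17 passed it only through WT. For these genes the lack of overlap partly follows from the filter. The median log2 ratio of GLUT1EC-/- over WT was 0.12 over the 52 members and 0.01 over all genes.

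**Figure D1:**
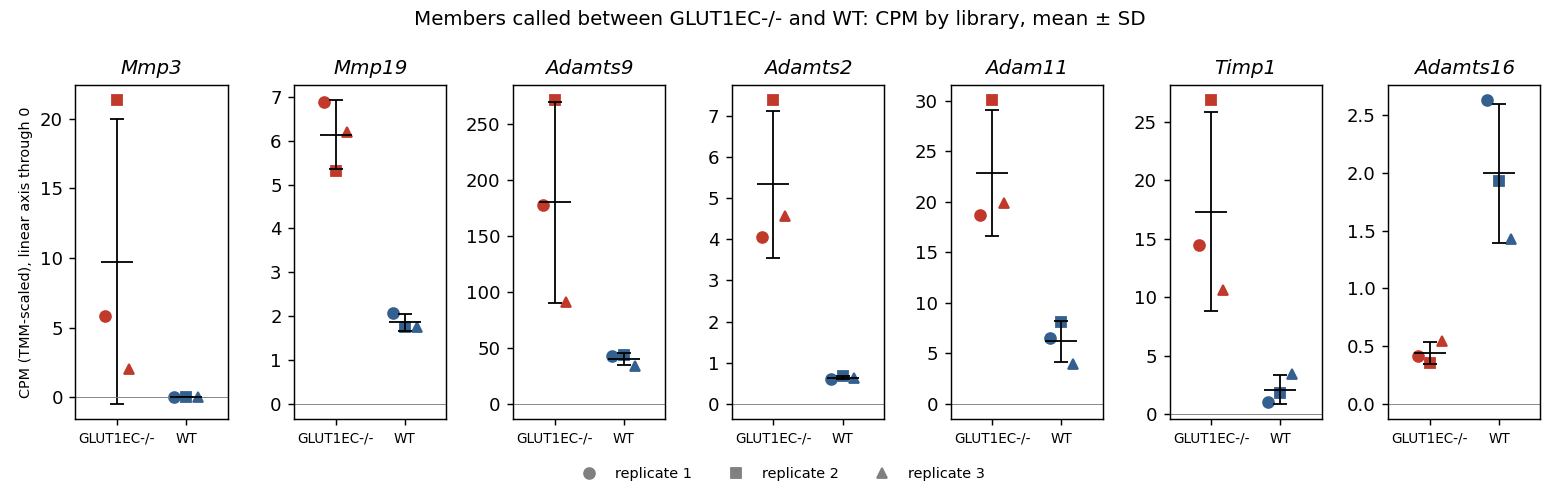
CPM of the 7 called members (vertical axes, linear) in each library, with GLUT1EC-/- (red) left of WT (blue). Marker shapes give the replicate and the bars the mean ± SD of 3 libraries; the groups do not overlap in any panel, and GLUT1EC-/- 2 (square) is the highest library for Mmp3, Adamts9, Adamts2, Adam11 and Timp1.

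These calls changed when single libraries were left out, which also leaves fewer libraries for the test. Without GLUT1EC-/- 1 only Adamts2 remained (adjusted p = 0.0313 by edgeR), and without WT 1, WT 2 or WT 3 no member was called. In those 3 fits without a WT library, 13, 17 and 14 members were higher at an unadjusted p under 0.05 (edgeR), against 16 of 52 tested with all libraries. With all libraries, 1211 of all 14838 genes tested were higher at this unadjusted threshold. Whether the smaller number of libraries alone accounts for the lost calls was not tested. Without GLUT1EC-/- 2 the same 7 were called, with 4 more higher, and without GLUT1EC-/- 3 the same 6 rose with 1 more and Adamts16 did not pass. Animal numbers lie in the 200s (1 GLUT1EC-/-, 2 WT) and the 500s (2 GLUT1EC-/-, 1 WT), and with this series as a term 0 members passed (edgeR, 14 higher and 1 lower at an unadjusted p under 0.05; fitted without this term, DESeq2 called 11 higher and 1 lower).

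Among the matrix metalloproteases, 2 rose and 10 gave no call out of 12 tested, with a median log2 ratio of 0.22, which does not depend on the value taken for Mmp3. Mmp3 encodes stromelysin-1, which cuts proteoglycans, fibronectin and laminin and activates other MMP precursors. It had 5.82, 21.3 and 2.06 CPM in the 3 libraries labelled GLUT1EC-/- (223, 714 and 76 counts), against 0 counts in each WT library. All 3 libraries of the knockout group were above all WT libraries, and they differed among themselves by about as much as their own mean (9.73 ± 10.2 CPM, SD, n = 3). Against a floor of 3 counts in each WT library the level was at least 115-fold higher (adjusted p = 0.0476 by edgeR), and at least 46.5-fold higher without GLUT1EC-/- 2. The call did not hold with limma-voom (adjusted p = 0.0563) or with no filter on low counts (adjusted p = 0.0527 by edgeR). It also did not hold with scaling to library size alone or with a filter of at least 1 CPM in 3 libraries (edgeR).

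Mmp3 lies on chromosome 9 (GRCm38, plus strand, chr9:7445822-7455975) in a cluster of 10 Mmp genes that spans 427 kb. None of the other 9 genes had counts in all 3 libraries labelled GLUT1EC-/- and 0 in all WT libraries. Mmp12, the macrophage elastase 2 genes upstream, had 47, 50 and 53 counts in libraries labelled GLUT1EC-/- and 36, 35 and 29 in WT (log2 ratio 0.55, adjusted p = 0.504 by edgeR). Next to Mmp3 on its downstream side, Mmp1a, an interstitial collagenase, had 8 counts in GLUT1EC-/- 2 and 0 in the other 5 libraries. Mmp10, stromelysin-2, had 2 counts in the knockout group and 7 in WT. The collagenases Mmp13 and Mmp8 had 15 and 12 counts in the knockout group, against 35 and 34 in WT, and were not tested. Mmp27 had 1, 2 and 3 counts in the libraries labelled GLUT1EC-/- and 1, 0 and 0 in WT. Mmp1b, Mmp20 and Mmp7 had 0 counts. Only 0.294% of the 100-base stretches of Mmp3 transcripts also occur in Mmp10, which had 9 counts in all 6 libraries together.

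**Figure D2:**
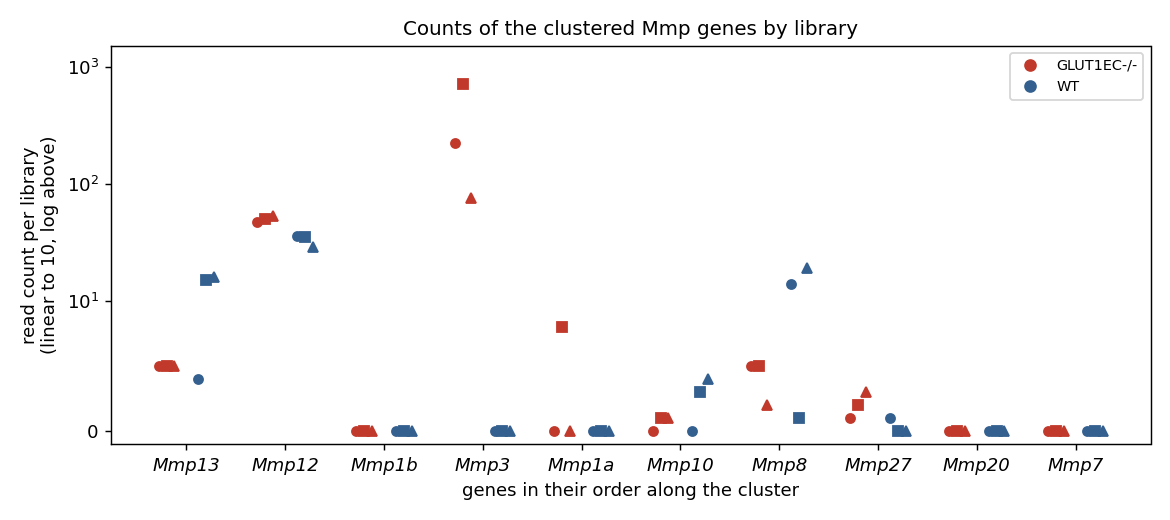
Read counts per library (vertical axis, linear to 10 and logarithmic above) for the 10 clustered Mmp genes in chromosomal order, with GLUT1EC-/- (red) left of WT (blue) and circles, squares and triangles for replicates 1, 2 and 3. Mmp3 reaches 76 to 714 counts in the libraries labelled GLUT1EC-/- and 0 in WT, and no other gene of the cluster exceeds 53 counts.

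Promoter sequences are shown for the 4 of 7 called members with an entry in the RefSeq promoter table (GRCm38.p6): the 250 bases before the annotated start of each gene, in the direction of the gene. Capitals mark 3 motifs: the AP-1 site TGANTCA and the Ets (PEA3) site AGGAAG on both strands, and the TATA box TATAAA on the gene's strand; the motifs do not overlap each other in these windows. The windows are chr9:7445572-7445821 (plus strand) for Mmp3, chrX:20869916-20870165 (plus strand) for Timp1, chr6:92943535-92943784 (minus strand) for Adamts9 and chr11:50601835-50602084 (plus strand) for Adamts2.
Mmp3: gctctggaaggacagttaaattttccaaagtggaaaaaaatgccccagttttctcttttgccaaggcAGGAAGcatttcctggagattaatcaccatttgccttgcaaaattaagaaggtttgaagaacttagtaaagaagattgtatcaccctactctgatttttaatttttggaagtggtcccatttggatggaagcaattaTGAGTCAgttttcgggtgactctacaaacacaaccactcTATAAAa
Timp1: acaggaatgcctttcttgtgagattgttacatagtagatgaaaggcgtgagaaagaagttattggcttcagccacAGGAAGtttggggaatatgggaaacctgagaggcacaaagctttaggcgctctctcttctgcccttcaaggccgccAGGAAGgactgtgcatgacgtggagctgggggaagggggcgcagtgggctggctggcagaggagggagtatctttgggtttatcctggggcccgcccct
Adamts9: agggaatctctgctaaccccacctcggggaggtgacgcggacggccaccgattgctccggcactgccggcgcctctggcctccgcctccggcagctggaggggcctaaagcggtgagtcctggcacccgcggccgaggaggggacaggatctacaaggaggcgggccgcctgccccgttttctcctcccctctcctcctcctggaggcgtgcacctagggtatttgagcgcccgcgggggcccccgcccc
Adamts2: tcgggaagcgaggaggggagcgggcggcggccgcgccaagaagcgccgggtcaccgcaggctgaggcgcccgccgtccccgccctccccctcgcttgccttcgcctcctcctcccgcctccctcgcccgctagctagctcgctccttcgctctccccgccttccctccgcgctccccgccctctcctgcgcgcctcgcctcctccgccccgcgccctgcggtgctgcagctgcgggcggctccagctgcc

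The 4 windows differed in composition. Mmp3 had 37.6% G and C with 1 CpG and held all 3 motifs, with TGAGTCA at -46 to -40 and TATAAA at -7 to -2 counted from the annotated start. Timp1 had 54.4% G and C and held AGGAAG at -175 to -170 and again at -99 to -94. Adamts9 and Adamts2 had 71.2% and 78.0% G and C with 22 and 34 CpG, and none of the 3 motifs was found in these windows. Of the 39 members with a window in the table, 4 held TGANTCA (Adam19, Mmp12, Mmp13 and Mmp3), 15 AGGAAG and 5 TATAAA. The shares among all 32851 windows of the same length were 6.75%, 29.5% and 7.59%, against 10.3%, 38.5% and 12.8% of these members. A match is a description of letters and not evidence of binding.

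Mmp19, a basement membrane protease (chromosome 10, plus strand, chr10:128790910-128800824), had 6.89, 5.32 and 6.20 CPM in libraries labelled GLUT1EC-/-, against 2.07, 1.75 and 1.75 CPM in WT. Every library of the knockout group was above every WT library, and its standard error was the smallest among the 7 called members (log2 ratio 1.72, SE 0.23, adjusted p = 0.0203 by edgeR). The difference was similar within the 200s and the 500s (1.85 and 1.72 on the log2 scale). Its exons overlap those of Tmem198b on the other strand and the strand setting of the counting is not given, so the count is uncertain. Tmem198b itself was at 38.5 ± 2.2 CPM in the knockout group and 36.1 ± 2.1 CPM in WT (SD, n = 3 each).

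The gelatinase Mmp2 was just outside the threshold, and its membrane-bound activator Mmp14 was further from it. Mmp2, which cuts denatured collagen and collagen IV, had 7.65, 13.4 and 11.7 CPM in libraries labelled GLUT1EC-/-, against 4.24, 4.47 and 4.83 CPM in WT. The groups did not overlap, and the log2 ratio was 1.28 (SE 0.24, adjusted p = 0.0507 by edgeR). Mmp14 had 28.9, 57.8 and 26.1 CPM in the knockout group and 10.5, 16.2 and 16.9 CPM in WT, again without overlap (log2 ratio 1.37, SE 0.33, adjusted p = 0.099 by edgeR). Both passed without GLUT1EC-/- 2 (adjusted p = 0.0165 by edgeR for Mmp2 and 0.0252 for Mmp14) and with DESeq2 (adjusted p = 0.000124 and 0.00185). Mmp9, the other gelatinase, was low, at 1.25, 2.93 and 0.46 CPM in the knockout group and 1.79, 1.66 and 2.34 CPM in WT, with overlapping groups.

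The Mmp genes with the highest levels per length gave no call. Mmp28, epilysin, had 10.2 CPM per kilobase of exon in the knockout group and 11.2 in WT, and Mmp15, a membrane-type MMP, had 6.80 and 9.60. Mmp15 differed widely among the libraries labelled GLUT1EC-/-, with 24.2, 8.00 and 77.9 CPM, against 50.3, 45.5 and 59.5 CPM in WT. GLUT1EC-/- 2 was thus the lowest and GLUT1EC-/- 3 the highest of all 6 libraries for Mmp15 (log2 ratio -0.50, SE 0.64, adjusted p = 0.753 by edgeR). Without GLUT1EC-/- 3 its log2 ratio was -1.68 and without GLUT1EC-/- 2 it was -0.03. Mmp25, a membrane-anchored MMP known from neutrophils, was at 19.2 ± 2.0 CPM and 18.4 ± 2.4 CPM (SD, n = 3 each), a log2 ratio of 0.06 with a 95% interval of -0.31 to 0.43. The 9 neutrophil markers summed to 2.33 to 8.66 CPM in the knockout group and 5.52 to 9.68 CPM in WT.

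Among the 15 tested ADAMTS genes, 2 rose, 1 fell and 12 gave no call, with a median log2 ratio of 0.44. Adamts2, which removes the amino-terminal propeptide of fibrillar procollagens, had, together with Timp1, the largest fitted rise of the members with WT counts. It had 4.05, 7.38 and 4.57 CPM in libraries labelled GLUT1EC-/-, against 0.619, 0.672 and 0.640 CPM in WT. The WT libraries lay close together and the lowest library of the knockout group was several times above them (log2 ratio 3.04, SE 0.33, adjusted p = 0.0148 by edgeR). Within the 200s and the 500s the difference was 2.65 and 3.22 on the log2 scale. The gene lies on chromosome 11 (chr11:50602084-50807573, plus strand).

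Of the other procollagen N-proteinases, Adamts14 had 21.4, 37.4 and 24.5 CPM in the knockout group and 11.8, 16.6 and 15.2 CPM in WT. The groups did not overlap, but the difference did not pass (log2 ratio 0.93, SE 0.24, adjusted p = 0.122 by edgeR); it passed without GLUT1EC-/- 2 (adjusted p = 0.0453 by edgeR). Adamts3 was too low to test, at 0.179 CPM or less in every library. Of 10 fibroblast markers, 1 rose (Dcn, by edgeR) and 9 were higher by value. At an unadjusted p under 0.05 by edgeR, 8 were higher and 1 lower. DESeq2 called 5 higher and 1 lower, and limma-voom 1 higher. Ogn went the other way without overlap, at 12.5 ± 3.0 CPM in the knockout group and 21.3 ± 3.0 CPM in WT. Summed levels were 283, 243 and 475 CPM in libraries labelled GLUT1EC-/-, against 147, 176 and 168 CPM in WT, and no marker was at 0. Every sum of the knockout group was above every WT sum, and GLUT1EC-/- 2 had the lowest of its group. The part of fibroblasts in these results was not tested.

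Adamts9 led the 6 tested ADAMTS genes that cut versican and related proteoglycans, as the 1 of 6 that rose. It lies on chromosome 6 (chr6:92772699-92943492, minus strand). It had 177, 271 and 91.2 CPM in libraries labelled GLUT1EC-/-, against 42.5, 43.6 and 33.6 CPM in WT. The groups did not overlap, with GLUT1EC-/- 2 the highest and GLUT1EC-/- 3 the lowest library of its group (log2 ratio 2.17, SE 0.35, adjusted p = 0.0327 by edgeR). The difference was 1.75 on the log2 scale without GLUT1EC-/- 2 and 2.49 without GLUT1EC-/- 3. Exons of A730049H05Rik and Gm15737 overlap it on the other strand, so its count is uncertain, and counts of both were not used here.

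The most abundant member was another gene of this class. Adamts1, known for cutting versican and for restraining vessel growth, had 550 CPM per kilobase in the knockout group and 493 in WT, and made up 85.7% to 89.5% of the summed ADAMTS level in every library. By library it had 2522, 4056 and 2169 CPM in the knockout group, against 2538, 3059 and 2243 CPM in WT. GLUT1EC-/- 2 was the highest of all and GLUT1EC-/- 3 the lowest, so the groups overlapped (log2 ratio 0.16, 95% interval -0.41 to 0.72, adjusted p = 0.798 by edgeR). Adamts4, an aggrecanase, had 125, 187 and 99.8 CPM against 83.4, 119 and 72.3 CPM in WT (log2 ratio 0.58, SE 0.27, adjusted p = 0.368 by edgeR). Adamts8, Adamts5 and Adamts15 had log2 ratios of 0.67, 0.32 and -0.01 and did not pass. Vcan, the gene of the substrate versican, had 9.16, 14.3 and 6.55 CPM in the knockout group and 3.37, 3.97 and 2.22 CPM in WT (log2 ratio 1.65, SE 0.34, adjusted p = 0.0665 by edgeR). It was 1 of 3 tested lectican genes, none of which passed (edgeR, 1 higher at an unadjusted p under 0.05; 1 by DESeq2, 0 by limma-voom).

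Adamts16, a secreted protease for which fibronectin is a known substrate, was the only member to fall among the 52 tested. It had 0.418, 0.358 and 0.541 CPM in libraries labelled GLUT1EC-/-, against 2.63, 1.93 and 1.43 CPM in WT. All 3 WT libraries were above the knockout group, at low levels (log2 ratio -2.17, SE 0.39, adjusted p = 0.0433 by edgeR). The difference was -2.45 and -1.67 on the log2 scale within the 200s and the 500s. It did not pass with limma-voom (adjusted p = 0.0581) or with scaling to library size alone (adjusted p = 0.0622 by edgeR). The gene lies on chromosome 13 (chr13:70727802-70841811, minus strand).

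The remaining ADAMTS genes gave no call. Adamts10, which binds fibrillin microfibrils, had 191, 143 and 255 CPM in the knockout group and 287, 253 and 224 CPM in WT (log2 ratio -0.37, SE 0.22, adjusted p = 0.476 by edgeR). Adamts12, a protease of cartilage oligomeric matrix protein, had 1.64, 1.55 and 2.16 CPM, against 0.928, 0.876 and 0.887 CPM in WT. Its groups did not overlap and the log2 ratio was 0.99 (SE 0.31, adjusted p = 0.194 by edgeR). Adamts13, the protease of von Willebrand factor, had 1 count in all libraries together, in WT 1, and so did not meet the rule.

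**Figure D3:**
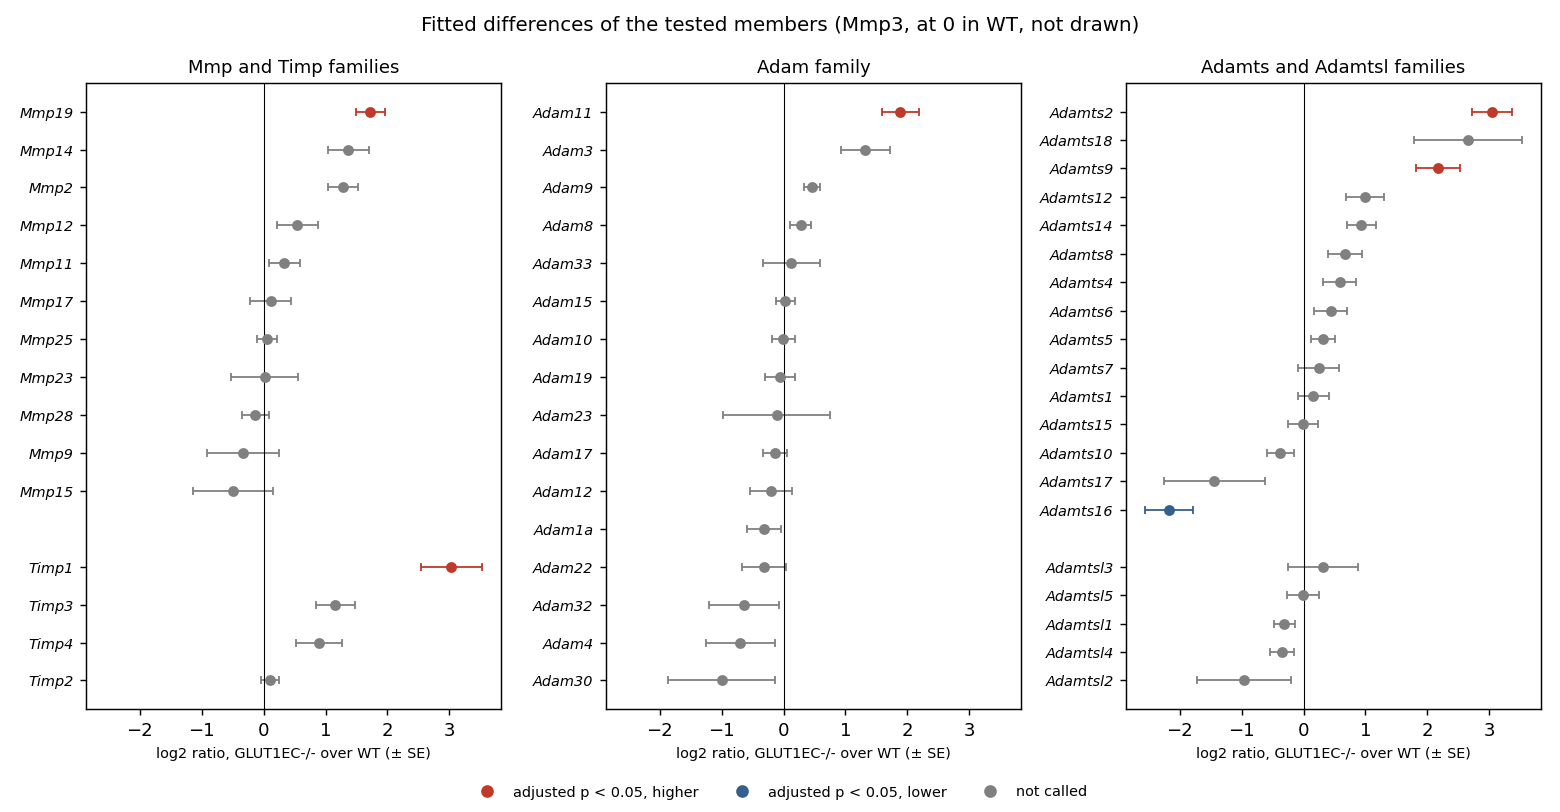
Log2 fold changes of GLUT1EC-/- over WT (horizontal axis) with their standard errors for 51 of the 52 tested members, by family; Mmp3, at 0 counts in WT, is left out. Red and blue mark members called higher and lower at an adjusted p under 0.05; Adamts2 and Timp1 lie farthest to the right among the called members, at 3.04 and 3.03.

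Among the 16 tested ADAM genes, 1 rose and 15 gave no call, with a median log2 ratio of -0.08. Adam11 encodes an ADAM without an active protease site that is known from neurons. It had 18.7, 30.05 and 19.9 CPM in libraries labelled GLUT1EC-/-, against 6.53, 8.06 and 3.99 CPM in WT. The groups were well separated (log2 ratio 1.89, SE 0.30, adjusted p = 0.0296 by edgeR), with differences of 1.36 and 2.65 on the log2 scale within the 200s and the 500s. Its relatives without protease activity, Adam22 and Adam23, had log2 ratios of -0.32 and -0.11. Of 10 neuron markers 9 were tested and 0 passed (edgeR, 1 higher and 1 lower at an unadjusted p under 0.05, 0 by DESeq2 and by limma-voom), and none was at 0. Their summed level, most of it Stmn2, was 71.6, 71.5 and 125 CPM in the knockout group and 109, 99.7 and 114 CPM in WT. By value, 4 of the 9 tested neuron markers were higher and 5 lower. The neuron marker Slc17a7 had 2.92, 5.62 and 2.57 CPM in the knockout group and 2.10, 1.46 and 1.45 CPM in WT, without overlap (log2 ratio 1.15, adjusted p = 0.204 by edgeR). Snap25 had 4.78, 3.49 and 3.52 CPM in the knockout group and 6.99, 5.46 and 5.47 CPM in WT, also without overlap (log2 ratio -0.60, adjusted p = 0.286 by edgeR). The part of neurons in the result was not tested. Adam11 lies on chromosome 11 (chr11:102761439-102780262, plus strand).

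The most abundant sheddases gave no call. Adam15 had the highest level per length of the family, at 120 CPM per kilobase in the knockout group and 118 in WT, and its log2 ratio of 0.03 had a 95% interval of -0.31 to 0.37. Adam10, which cuts Notch receptors and VE-cadherin, had 253, 165 and 270 CPM in libraries labelled GLUT1EC-/-, against 226, 241.1 and 224 CPM in WT. The groups overlapped, with GLUT1EC-/- 2 the lowest library (log2 ratio below 0.01 in size, 95% interval -0.44 to 0.43). Adam17, which releases tumour necrosis factor and other membrane ligands, had 81.6, 62.5 and 108 CPM against 93.3, 99.0 and 85.9 CPM in WT (log2 ratio -0.14, 95% interval -0.59 to 0.32).

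Adam9, another sheddase, had 91.9, 91.8 and 80.2 CPM in the knockout group and 65.8, 68.8 and 57.3 CPM in WT. Its groups did not overlap, though the difference did not pass over all genes (log2 ratio 0.46, SE 0.13, adjusted p = 0.157 by edgeR). Adam8, known from leukocytes, was at 11.1, 9.17 and 9.31 CPM against 8.20, 8.00 and 8.27 CPM in WT (adjusted p = 0.508 by edgeR). Adam3, a sperm protein in the testis, was at 1.85, 1.28 and 1.95 CPM against 0.402, 0.789 and 0.837 CPM in WT (log2 ratio 1.32, SE 0.40, adjusted p = 0.176 by edgeR). Of the 100-base stretches of Adam1a transcripts, 76.5% also occur in other genes, so its count is uncertain.

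None of the 5 ADAMTS-like genes passed (edgeR, 0 at an unadjusted p under 0.05, 0 by DESeq2 and by limma-voom), with a median log2 ratio of -0.31. Adamtsl4, a fibrillin-binding protein, had 35.02, 28.3 and 47.4 CPM in libraries labelled GLUT1EC-/-, against 46.2, 48.0 and 46.5 CPM in WT (log2 ratio -0.35, SE 0.19). Adamtsl1 had 30.2, 25.7 and 36.3 CPM against 33.3, 43.7 and 37.5 CPM in WT (log2 ratio -0.31, SE 0.17). Adamtsl2, which binds fibrillin and latent TGF-beta complexes, had the largest standard error of the 5 ADAMTS-like genes, with 19.1, 2.78 and 45.6 CPM in the knockout group and 62.2, 42.7 and 27.0 CPM in WT. GLUT1EC-/- 2 was again far below the others, and the groups overlapped (log2 ratio -0.96, SE 0.76, adjusted p = 0.603 by edgeR). Adamtsl5 was at 5.16 ± 1.41 CPM and 5.18 ± 0.71 CPM (SD, n = 3 each).

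Of the 4 inhibitors, 1 rose and 3 did not pass, and all 4 had a log2 ratio above 0 under TMM, RLE, upper-quartile and library-size scaling, with a median of 1.02 on the log2 scale. Timp1, a secreted inhibitor that injury and inflammation are known to induce in the brain, lies on the X chromosome (chrX:20870166-20874735, plus strand). It had 14.5, 26.9 and 10.6 CPM in libraries labelled GLUT1EC-/-, against 1.05, 1.78 and 3.47 CPM in WT. Each library of the knockout group was above all WT libraries (log2 ratio 3.03, SE 0.49, adjusted p = 0.0327 by edgeR), with differences of 3.35 and 2.43 on the log2 scale within the 200s and the 500s. Without WT 3 the log2 ratio was 3.60. Of 10 astrocyte markers, 6 were higher and 4 lower by value, and none was at 0. Gfap rose (edgeR, with 3 markers higher and 1 lower at an unadjusted p under 0.05, 2 higher by DESeq2, 1 by limma-voom). Slc1a2 and Aldoc went the other way without overlap (log2 ratios -0.90 and -0.29, adjusted p = 0.225 and 0.47 by edgeR). Summed levels of the astrocyte markers were 203, 247 and 238.5 CPM in the knockout group and 153, 175 and 144 CPM in WT. The part of astrocytes in the result was not tested.

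Timp3, which binds the matrix and also blocks ADAM17 and the aggrecanases, was the inhibitor with the highest level per length, at 374 CPM per kilobase in the knockout group and 168 in WT. By library it had 2239, 4728 and 2172 CPM in the knockout group, against 1408, 1598 and 1101 CPM in WT. The groups did not overlap and GLUT1EC-/- 2 stood far above the other libraries, but the difference did not pass (log2 ratio 1.15, SE 0.31, adjusted p = 0.142 by edgeR). Without GLUT1EC-/- 2 it passed with a smaller difference (log2 ratio 0.68, adjusted p = 0.0389 by edgeR). Its exons overlap those of Syn3 on the other strand, which had 1.72 ± 0.57 CPM in the knockout group and 2.08 ± 0.28 CPM in WT. Timp2, which also takes part in activating the Mmp2 precursor, was at 166 ± 16 CPM and 154 ± 20 CPM (SD, n = 3 each; log2 ratio 0.11, 95% interval -0.23 to 0.45). Timp4 was at 2.38 ± 0.68 CPM and 1.28 ± 0.44 CPM (log2 ratio 0.89, SE 0.37, adjusted p = 0.324 by edgeR).

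Summed by family, the level per length of the TIMPs was 330, 654 and 326 CPM per kilobase in libraries labelled GLUT1EC-/-, against 208, 240 and 183 in WT. Timp3 supplied 74.0% to 88.7% of it. The MMP sum was 34.1, 43.5 and 46.4 CPM per kilobase in the knockout group and 32.9, 32.1 and 31.9 in WT. The ADAM sum was 198, 191 and 237 against 201, 197 and 198 in WT, and the ADAMTS sum 547, 855 and 478 against 541, 644 and 475. The ADAMTS-like sum was 14.1, 10.1 and 21.3 CPM per kilobase in the knockout group and 22.4, 21.5 and 18.6 in WT. The sums are descriptions of these libraries and were not tested.

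**Figure D4:**
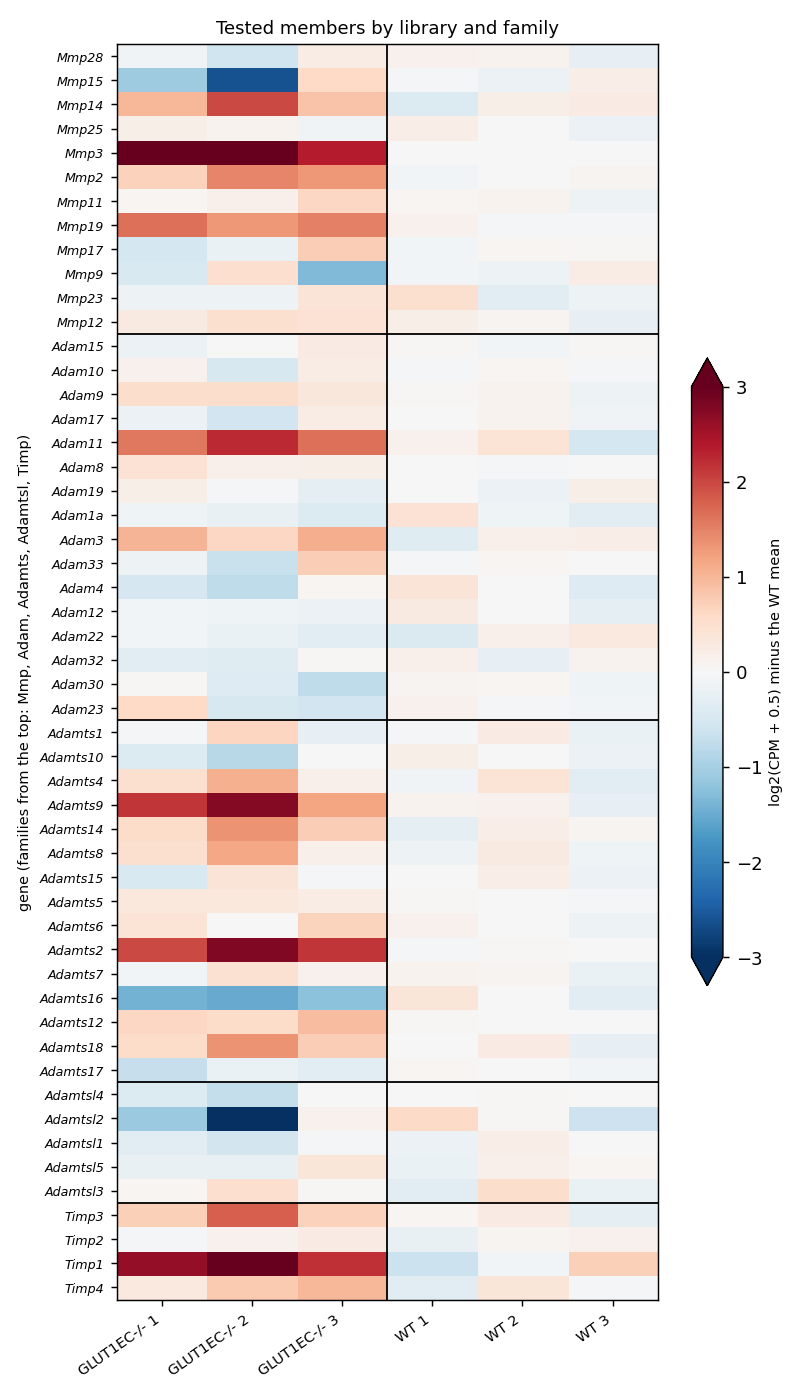
Level of the 52 tested members (rows, by family and then by level per length) in each library (columns, GLUT1EC-/- left of WT), as log2(CPM + 0.5) minus the mean of the WT libraries. Mmp3, Timp1, Adamts9 and Adamts2 are red in all 3 libraries labelled GLUT1EC-/-, and Mmp15 and Adamtsl2 are blue in GLUT1EC-/- 1 and 2 and not in GLUT1EC-/- 3.

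The libraries labelled GLUT1EC-/- varied among themselves in these genes. GLUT1EC-/- 2 was the highest of the 6 libraries for 17 of the 52 tested members (32.7%, against 33.3% of all genes tested) and the lowest for 13 (25.0%, against 34.8%). For 5 of the 6 members that rose, the highest value was in GLUT1EC-/- 2, and for Mmp19 it was in GLUT1EC-/- 1. All 6 had the knockout group above WT, so their highest library could only lie in that group, unlike for all genes tested. The 11 members that were not tested stayed at or below 0.468 CPM in every library. Of 12 microglia markers, 10 were higher and 2 lower by value, and 3 rose by edgeR. DESeq2 called 4 higher and limma-voom 3, and 7 were higher at an unadjusted p under 0.05 by edgeR. Their sums were 1007, 779 and 1613 CPM in the knockout group, against 507, 570 and 602 CPM in WT. Every sum of the knockout group was above every WT sum, and GLUT1EC-/- 2 had the lowest of its group. The part of microglia in these results was not tested.

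Other genes of pericellular proteolysis were examined from lists of the plasminogen system, other inhibitors, activating convertases, partners of ADAM10 and ADAM17, astacin proteases and relatives of the ADAMTS-like genes. In the plasminogen system, Serpine2, the protease inhibitor nexin-1, had 104, 258 and 105 CPM in the libraries labelled GLUT1EC-/-, against 36.4, 40.1 and 48.3 CPM in WT (log2 ratio 1.90, SE 0.36, adjusted p = 0.0494 by edgeR). The groups did not overlap, and GLUT1EC-/- 2 was the highest library. Plat, tissue plasminogen activator, was at 843, 1507 and 827 CPM against 644, 764 and 639 CPM in WT and did not pass (log2 ratio 0.63, adjusted p = 0.281 by edgeR).

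Of 4 tested genes in the list of inhibitors and clearance outside the TIMPs, 1 rose, and by value 2 were higher and 2 lower. A2m, the broad protease trap alpha-2-macroglobulin, had 69.2, 39.4 and 99.8 CPM in the knockout group and 16.7, 13.5 and 15.5 CPM in WT (log2 ratio 2.19, SE 0.31, adjusted p = 0.0214 by edgeR). Reck, a membrane-anchored MMP inhibitor that also serves Wnt7 signalling in brain endothelium, was at 219, 136 and 212 CPM against 272, 305 and 274 CPM in WT. Its groups did not overlap, and the log2 ratio of -0.59 did not pass (SE 0.19, adjusted p = 0.212 by edgeR). Lrp1 and Bsg, the remaining tested genes of this list, also had groups without overlap and did not pass (log2 ratios 0.54 and -0.82, adjusted p = 0.202 and 0.214 by edgeR). None of 4 convertases, 8 partners of ADAM10 and ADAM17, 4 astacins and partners or 2 ADAMTS-like relatives passed (edgeR, DESeq2 and limma-voom, with 1 gene in each list higher at an unadjusted p under 0.05). Furin, which removes the propeptide of many of these proteases, had 292, 513 and 267 CPM in the knockout group and 232, 237 and 206 CPM in WT (log2 ratio 0.67, adjusted p = 0.26 by edgeR). The most abundant genes of the remaining lists, the ADAM10 partner Tspan5, the procollagen C-proteinase enhancer Pcolce and the fibrillin-binding Thsd4, had log2 ratios of 0.05, 0.68 and 0.30.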

How the data were processed

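The submitters' processing notes name STAR, featureCounts and GRCm38; the sources used here give no versions, annotation, strand setting or filters. What the authors deposited are raw counts per gene symbol, 1 file per library. Per the labels' protocols, libraries were stranded mRNA, read as single-end 100 bp reads.

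From the counts, edgeR 4.0.16 (R 4.3.3) fitted genotype to all 6 libraries with TMM scaling and robust quasi-likelihood F tests after filterByExpr at a minimum count of 10 and a total of 15, adjusted by Benjamini-Hochberg over 14838 genes. Standard errors are the fold change divided by the root of F. Levels are CPM, fold changes are given as log2 ratios of GLUT1EC-/- over WT, and levels per kilobase use the union of GENCODE M21 exons. The script was tested on simulated data. Replicates were numbered in accession order and no pair of a group agreed within counting noise; p-values measure the spread between 3 libraries a group. Totals of 31874662 to 39424384 counts set the precision, and floors of 3 counts cover counting error only.

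Members, lists and tests were chosen with earlier results of these data known. Named genes are all called members, the 4 with the highest level per length in each family, the 5 largest uncalled fold changes at a mean of 1 CPM or more, and called or most abundant genes of the other lists. Adamts3, Adamts5, Adamts8, Adamts13, Adamts14, Adamts15, Adam8, Adam22, Adam23, Adam1a, Mmp9, Mmp12, Vcan, Reck, Ogn, Slc17a7, Snap25 and the Mmp cluster were named after their values were seen. The same holds for Adamts17, Adamts18, Slc1a2, Aldoc, Lrp1 and Bsg. Alternatives were RLE, upper-quartile and library-size scaling, other filters, DESeq2 1.42.0, limma-voom (limma 3.58.1), non-robust dispersion, the animal number series, a threshold of 0.1 and each library left out. A result of the plasminogen system list is not reported here.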

Additional observations from a re-analysis of the deposited data

How the results depend on the processing

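The count of members that rose was 6 with RLE and upper-quartile scaling, no filter and non-robust dispersion, 5 with library size alone, at least 1 CPM in 3 libraries and limma-voom, 8 at an adjusted p under 0.1, 11 with DESeq2 and 0 with the animal number series as a term; leaving out a library gave 0 to 10. The count that fell was 1 with the full fit and 0 with library size alone, limma-voom and the number series, and 0 to 1 leaving out a library. DESeq2 called 878 genes in all, against 194 with edgeR, and the fit without GLUT1EC-/- 2 called 862. The log2 ratio of Adamts1 was -0.16 without GLUT1EC-/- 2, 0.33 without GLUT1EC-/- 3 and -0.15 within the 200s, against 0.16 with all libraries, and it was called in none of the fits. The TIMP median was 0.44 within the 200s and 1.43 within the 500s, and the MMP median 0.03 and 0.61. The causes were not tested. No paired analysis was possible because the labels give no replicate numbers shared between groups. With 3 libraries a group, members without a call may differ by as much as their intervals allow, and the 11 members that were not tested reached at most 0.468 CPM in any library.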
